A study of Rattus norvegicus with 48 samples.

Results

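rno-miR-146a-5p, rno-miR-146b-5p and rno-miR-155-5p are the mature miRNAs of the rat that are best known for their induction in inflammation. They were taken by name as 3 of the 664 mature miRNAs with a read in rat liver, and all 3 were among the 301 that passed the filter on low values (at least 5 RPM, reads scaled to the library total, in at least 3 of 48 libraries). The members differed in where they rose over the controls. miR-146b-5p was called higher in 6 of 12 treatment conditions, miR-155-5p in 3, and miR-146a-5p in 0. Of the 3612 comparisons of all tested miRNAs, 12.1% were called higher. Among the 301 miRNAs, 16 were called higher in at least 6 conditions and 74 in at least 3. Male Sprague-Dawley rats received thioacetamide (TAA), a hepatotoxicant, once daily for 3, 7, 14 or 28 days, written as 3-d to 28-d below. The low dose was 4.5 mg/kg, the middle dose was 15 mg/kg and the high dose was 45 mg/kg, and each duration had its own controls on vehicle (0 mg/kg). Small RNA from whole pieces of liver was sequenced for 3 rats in each of the 16 groups, so the 12 dose and time conditions are each a comparison of 3 treated rats with the 3 controls of that time point. In whole liver, more cells of a type and more RNA per cell cannot be told apart.

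A miRNA acts by base pairing of its seed, bases 2 to 8 from the 5′ end, with messenger RNAs that are then repressed. miR-146a is induced through NF-kappaB when pattern recognition receptors or cytokine receptors are engaged. Both miR-146a and miR-146b, which have the same seed, dampen that signal by repressing the signalling proteins Traf6 and Irak1. miR-155 is cut from the long non-coding transcript of Mir155hg in activated macrophages and lymphocytes, and it lowers inhibitors of inflammatory signalling such as Socs1 and Inpp5d. In the liver these miRNAs are usually linked to Kupffer cells, infiltrating leukocytes and activated stellate cells.

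The mature sequences are shown because they tell which members can share targets and how closely the reads of miR-146a-5p and miR-146b-5p resemble each other. They were taken from RefSeq (GRCr8), where 270 of the 301 tested miRNAs were matched by name, and run 5′ to 3′ with the seed in capitals.
rno-miR-146a-5p: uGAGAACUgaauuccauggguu
rno-miR-146b-5p: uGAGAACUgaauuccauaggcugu
rno-miR-155-5p: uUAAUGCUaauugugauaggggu

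miR-146a-5p and miR-146b-5p were the only entries with the seed GAGAACU among 693 mature sequences of that table, and no other entry had the seed UAAUGCU of miR-155-5p. The first 17 bases of miR-146a-5p and miR-146b-5p were identical. Counted from the 5′ end, with the base of miR-146a-5p first, they differed by G18A and U21C, and miR-146b-5p was 2 bases longer (24 against 22). The authors kept reads of 18 to 25 bases, so the shortest reads can differ by a single base, and their assignment to miR-146a-5p or miR-146b-5p is less certain than that of other reads. The mature miR-146a-5p lay at chr10:28350053-28350074 on the minus strand, with its hairpin inside the lncRNA gene LOC134480673. miR-146b-5p lay at chr1:255144874-255144897 on the plus strand, with its hairpin inside the protein-coding gene C1h10orf95. miR-155-5p lay at chr11:37261117-37261139 on the plus strand, inside the lncRNA gene Mir155hg. Each was counted from a single precursor.

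Library totals ran from 4829217 to 14906217 counted reads (median of all 48 libraries 10237542), except for control 3-d replicate 1 with 293331. In that library 3 reads correspond to 10.2 RPM, against 0.201 to 0.621 RPM in the others. It held 246 reads of miR-146a-5p, 35 of miR-146b-5p and 0 of miR-155-5p, which allows up to 10.2 RPM of the last (counting error only). The summed level of 4 red blood cell miRNAs was 81096 normalized RPM there, and no other 3-d library exceeded 9240. The summed level of 5 hepatocyte miRNAs was between 124790 and 454919 normalized RPM over the libraries. Its largest part was miR-192-5p (median 210053), and miR-122-5p had a median of 35378. Because of its low total, log2 fold changes of miR-146b-5p and miR-155-5p at 3-d are also given without control 3-d replicate 1. Levels below are RPM after upper quartile normalization, and adjusted p-values are from edgeR's quasi-likelihood test with the Benjamini-Hochberg adjustment over the 301 miRNAs, 3 treated against 3 control libraries. A DEM, a called miRNA, had an unadjusted p below 0.05 and a fold change above 1.5.

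miR-146a-5p was the most abundant member. Its level had a median of 1024 normalized RPM over the 48 libraries and ranked 50 of 301. For miR-146b-5p the median was 372 (rank 79), and for miR-155-5p it was 24.9 (rank 189). In the 12 controls, miR-146a-5p was between 693 and 1539, miR-146b-5p between 98.7 and 409 and miR-155-5p between 0 and 26.8. The highest of the 16 group means was that of high dose 3-d for every member. The highest mean exceeded the lowest by 1.71-fold for miR-146a-5p, by 3.16-fold for miR-146b-5p and by 6.62-fold for miR-155-5p. When the 16 groups were ordered by their mean, neighbours overlapped in all 15 pairs for miR-146a-5p and for miR-155-5p. For miR-146b-5p they overlapped in 14 of 15 pairs, and the exception was the step from low dose 3-d (526) down to middle dose 14-d (376).

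**Figure D1:**
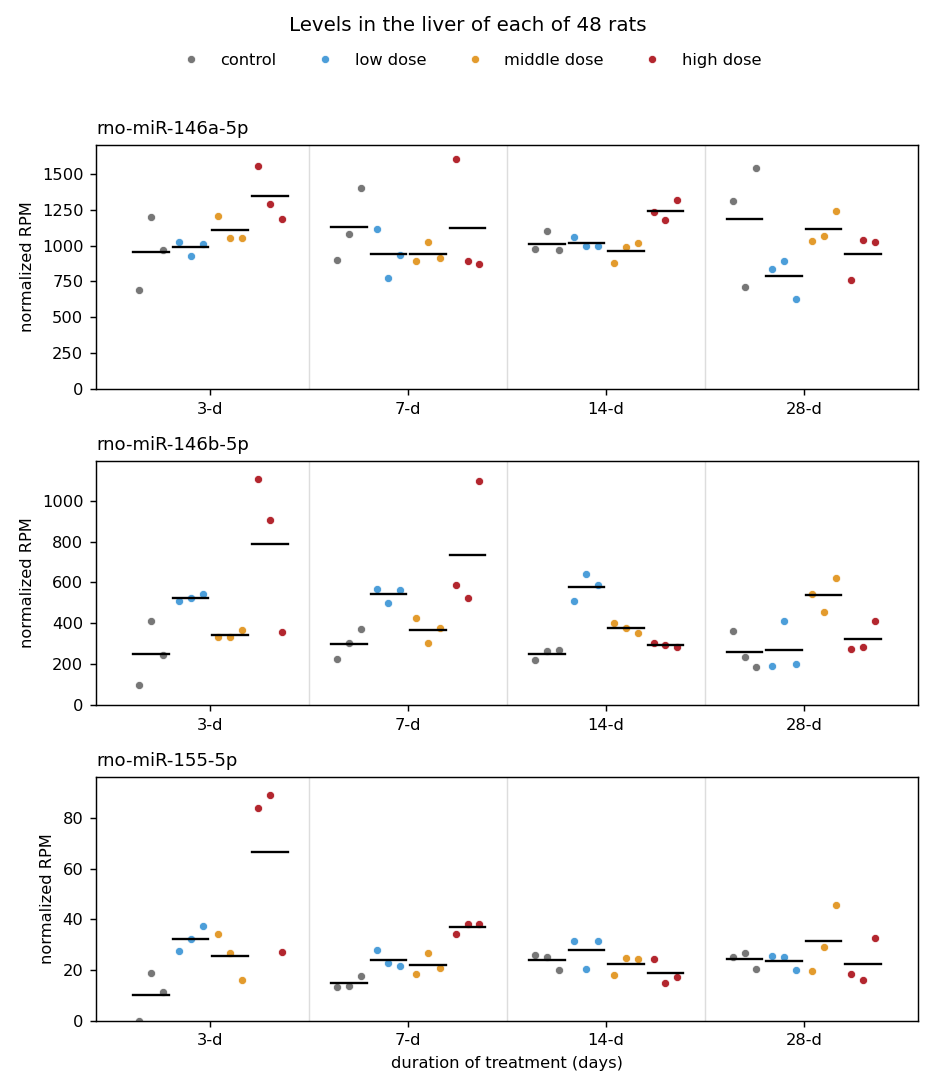
Level of each member (normalized RPM, linear axes from 0) in each rat, by duration and dose, where points are rats and black lines are means of 3. miR-146b-5p stood above its controls in low dose rats after 3, 7 and 14 days, miR-155-5p was highest in 2 high dose rats at 3-d, and miR-146a-5p was between 630 and 1602 in all groups.

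rno-miR-146b-5p was the member that changed in most conditions, and it did so at every time point. At 3-d the controls had 98.7, 409 and 245 normalized RPM. The low dose rats had 508, 526 and 543, the middle dose rats 332, 331 and 368, and the high dose rats 1109, 908 and 356. All low dose values lay above the controls, the middle dose values lay among them, and at high dose a pair of rats stood far above while the remaining rat lay within the control range. High dose 3-d was called, with a log2 fold change of 1.65 (SE 0.62, edgeR adjusted p = 0.40), in a comparison in which 6.98% of the 301 miRNAs were called higher. The call rested on the unadjusted p and was lost without high dose 3-d replicate 22 (1.32) or replicate 23 (1.54). Without control 3-d replicate 1 it was 1.27 and still called. Low dose 3-d had 1.05 (SE 0.50, adjusted p = 0.275), where 9.97% were called higher, and was not called, but it was without that control library (0.69) and without control 3-d replicate 2 (1.59). Middle dose 3-d had 0.44 (SE 0.53, adjusted p = 0.907), where 1.66% were called, and 0.07 without control 3-d replicate 1.

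At 3-d the median log2 fold change of all 301 miRNAs was itself 0.16, 0.21 and 0.28 at low, middle and high dose under upper quartile normalization, and -0.03, 0.07 and 0.05 under TMM. It was above 0.1 in 2 other comparisons, high dose 7-d (0.14) and low dose 14-d (0.11). Relative to that median, miR-146b-5p stood at 1.36 in high dose 3-d, 1.16 in high dose 7-d and 1.11 in low dose 14-d.

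After 7 days the miR-146b-5p level rose at low and at high dose. The controls had 227, 303 and 370 normalized RPM. Low dose rats had 570, 499 and 563, middle dose rats 427, 304 and 376, and high dose rats 590, 522 and 1098. Low and high dose did not overlap with the controls, whereas middle dose did. Low dose gave a log2 fold change of 0.86 (SE 0.17, adjusted p = 0.00430) where 18.3% of miRNAs were called higher, and high dose gave 1.3 (SE 0.33, adjusted p = 0.0400) where 17.9% were called. Middle dose, where 12% were called, had 0.30 (SE 0.18, adjusted p = 0.251).

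In the 14-d groups the log2 fold change was largest at low dose and smallest at high dose. Controls had 220, 263 and 267 normalized RPM. Low dose rats had 509, 642 and 588, middle dose rats 401, 375 and 352, and high dose rats 303, 291 and 282. All 3 doses lay wholly above the controls, by a small margin at high dose. The log2 fold change was 1.21 at low dose (SE 0.16, adjusted p = 0.000264), 0.59 at middle dose (SE 0.14, adjusted p = 0.0134) and 0.22 at high dose (SE 0.14, adjusted p = 0.449), where 22.9%, 12% and 5.65% of miRNAs were called higher. The middle dose value sits at the fold limit, and the call was lost under 9 alternatives. Its log2 fold change was below the limit under TMM (0.55), DESeq2 size factors (0.54), DESeq2's Wald test (0.54), no filter (0.54) and a filter of 5 RPM in every library (0.57), and also without control 14-d replicate 13 (0.50) or middle dose 14-d replicate 31 (0.54). With pooled controls it was 0.50 and in the single fit of all libraries 0.59, and in both the unadjusted p was above 0.05.

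By 28 days the rise was called at middle dose. Controls had 361, 233 and 186 normalized RPM. Low dose rats had 189, 412 and 200, middle dose rats 543, 454 and 623, and high dose rats 273, 282 and 410. The middle dose rats alone lay wholly above the controls. Their log2 fold change was 1.05 (SE 0.25, adjusted p = 0.00919) where 20.9% of miRNAs were called higher. Low dose had 0.04 (SE 0.38, adjusted p = 0.963) with 3.65% called, and high dose had 0.30 (SE 0.26, adjusted p = 0.496) with 13% called. Without control 28-d replicate 16, high dose 28-d reached 0.62 and was called.

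In all, miR-146b-5p was a DEM in 6 of 12 conditions, in 5 with the adjusted p below 0.05, and its log2 fold change was above 0 in all 12. Against the 12.1% of all 3612 comparisons that were called higher, 7.7% were called with the adjusted p as well. Its treated values lay wholly above the controls in 7 conditions, which held for 21.2% of all 3612 comparisons.

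rno-miR-155-5p rose at 3-d and 7-d, with its largest log2 fold changes at high dose. At 3-d the controls had 0, 18.9 and 11.3 normalized RPM. Low dose rats had 27.4, 32.3 and 37.3, middle dose rats 34.3, 26.8 and 16.1, and high dose rats 83.9, 88.8 and 27.2. The low and high dose rats lay above all controls, and the high dose rat with the low miR-146b-5p level, replicate 24, was also the low one here. High dose 3-d was called, where 6.98% of the 301 miRNAs were called higher. Its log2 fold change was 2.47 (SE 0.76, edgeR adjusted p = 0.40), 2.19 above the median of all miRNAs. Without the control library that held 0 reads it was 2.14, and the call was also kept without any other of the 6 libraries. Low dose 3-d had 1.39 (SE 0.61, adjusted p = 0.260) and was not called, but it was without that library (1.10) and without control 3-d replicate 2 (1.96). Middle dose 3-d had 1.09 (SE 0.66, adjusted p = 0.856), and 0.77 without the library that held 0 reads.

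At 7-d all 3 doses lay wholly above the controls. Treated values of miR-155-5p did so in 5 of 12 conditions, against 21.2% of all 3612 comparisons. The share of all miRNAs at 7-d alone was not computed. The controls had 13.1, 13.9 and 17.7 normalized RPM, the low dose rats 27.9, 22.9 and 21.5, the middle dose rats 18.5, 26.6 and 20.9, and the high dose rats 34.1, 38.3 and 38.1. The high dose rats stood apart from every other rat at that time. The log2 fold change was 0.69 at low dose (SE 0.17, adjusted p = 0.0122) and 1.3 at high dose (SE 0.19, adjusted p = 0.00742), and both were called. In these comparisons 18.3% and 17.9% of the 301 miRNAs were called higher. Middle dose had 0.56 (SE 0.18), just under the fold limit. It was called under TMM (0.59) and without control 7-d replicate 6 (0.70), middle dose 7-d replicate 34 (0.67) or replicate 36 (0.59). Low dose 7-d fell under it without low dose 7-d replicate 46 (0.57).

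No call was made for miR-155-5p at 14-d or 28-d. At 14-d the controls had 26.1, 25.3 and 19.98 normalized RPM, the low dose rats 31.6, 20.5 and 31.3, the middle dose rats 18.1, 24.7 and 24.4, and the high dose rats 24.2, 14.8 and 17.3. At 28-d the controls had 25.2, 26.8 and 20.5, the low dose rats 25.4, 25.3 and 20.01, the middle dose rats 19.7, 29.1 and 45.7, and the high dose rats 18.5, 16.1 and 32.7. Every treated group overlapped with its controls. Log2 fold changes were 0.22, -0.09 and -0.33 from low to high dose at 14-d and -0.04, 0.38 and -0.11 at 28-d, and the smallest adjusted p was 0.298. Without middle dose 28-d replicate 37, middle dose 28-d had 0.63 and was called.

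The control level of miR-155-5p was higher at the later times in these rats, although the adjusted test over time was not passed. The controls reached at most 18.9 normalized RPM at 3-d and 7-d and at least 19.98 at 14-d and 28-d, so these control ranges did not overlap. This split was made after the values were seen, and its share over all miRNAs was not computed. Over the 4 control groups the difference had an adjusted p of 0.111 (edgeR, a single fit of 48 libraries), where 101 of 301 miRNAs were below 0.05. Relative to 3-d the log2 difference was 0.18 at 7-d, 0.85 at 14-d and 0.88 at 28-d. Without control 3-d replicate 1 these were -0.02, 0.65 and 0.68. The edgeR adjusted p was then 0.197, with 46 of 301 miRNAs below 0.05. Against all 12 controls pooled, high dose 3-d (log2 fold change 1.81) and high dose 7-d (0.95) were called, low dose 7-d was not (0.34), and low dose 3-d was (0.76). The controls had an adjusted p of 0.623 for miR-146a-5p and 0.912 for miR-146b-5p.

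rno-miR-146a-5p was called in 0 of 12 conditions, although it was the most deeply counted member. Its log2 fold changes ran from -0.59 to 0.49 with a median of -0.04, and the unadjusted p was below 0.05 in 1 condition by edgeR and in 0 with the Benjamini-Hochberg adjustment. DESeq2's Wald test and edgeR's exact test also called it in 0. Of the 301 miRNAs, 70 were called in no condition in either direction. At 3-d the controls had 693, 1197 and 970 normalized RPM and the high dose rats 1555, 1290 and 1187, which gave 0.49 (SE 0.37, adjusted p = 0.526, 95% interval -0.36 to 1.35). That interval still holds a rise of the size seen in miR-146b-5p at 7-d.

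The remaining 3-d values of miR-146a-5p were 1025, 929 and 1009 at low dose and 1209, 1053 and 1056 at middle dose. At 7-d the controls had 902, 1083 and 1402, the low dose rats 1116, 775 and 937, the middle dose rats 893, 1026 and 913, and the high dose rats 1602, 892 and 871. At 14-d the controls had 974, 1099 and 969, the low dose rats 1059, 997 and 994, the middle dose rats 882, 991 and 1021, and the high dose rats 1238, 1177 and 1317. High dose 14-d was the only group wholly above its controls, with a log2 fold change of 0.29 (SE 0.12, adjusted p = 0.188), under the fold limit. At the same dose and time miR-146b-5p had 0.22 and miR-155-5p -0.33. The intervals at low dose 14-d (-0.28 to 0.29) and middle dose 14-d (-0.35 to 0.20) did not reach the limit of 1.5-fold in either direction.

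At 28-d the miR-146a-5p controls had 1312, 713 and 1539 normalized RPM, the largest SD of the 16 groups (427). The low dose rats had 840, 891 and 630, the middle dose rats 1033, 1068 and 1244, and the high dose rats 761, 1040 and 1023. Every dose overlapped with these controls. Low dose had -0.59 (SE 0.32, adjusted p = 0.412). Without control 28-d replicate 17, the lowest control, low dose (-0.86) and high dose (-0.60) were called lower.

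**Figure D2:**
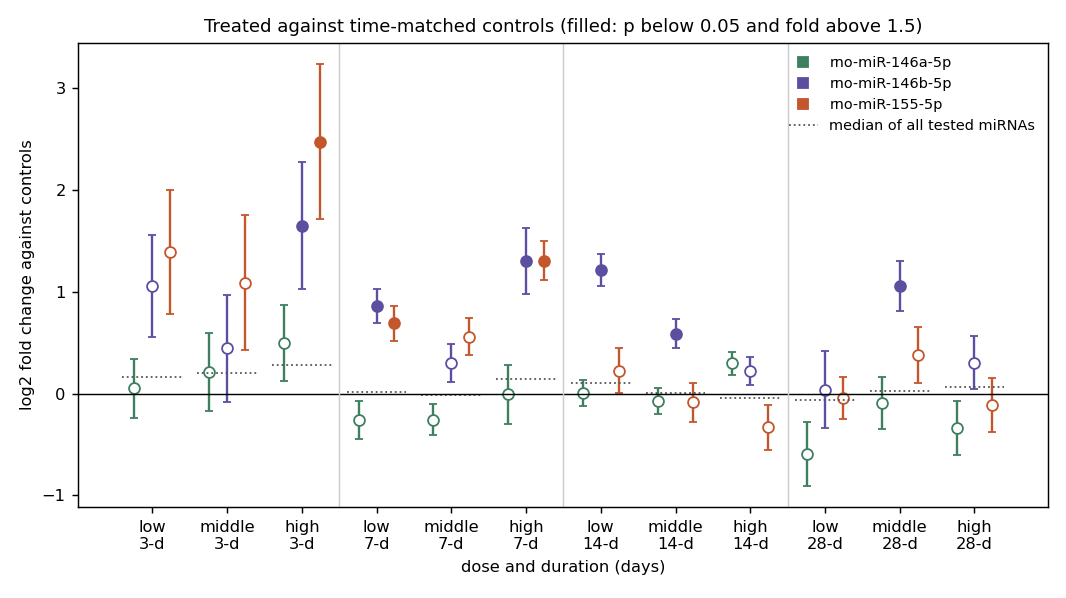
Log2 fold change against the 3 time-matched controls (vertical axis; bars are standard errors) of each member in 12 conditions, filled where called. miR-146b-5p has 6 filled points spread over all 4 time points, miR-155-5p has 3 at 3-d and 7-d, and miR-146a-5p has 0.

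Because miR-146a-5p and miR-146b-5p were counted in the same library, their ratio does not depend on the scaling between libraries. In the 12 controls there were between 0.121 and 0.342 reads of miR-146b-5p per read of miR-146a-5p (median 0.258), and in the 36 treated rats between 0.214 and 1.26 (median 0.440). The ratios of the treated rats lay wholly above those of their controls in 7 conditions and overlapped with them in 5. How often this occurs for other pairs of miRNAs was not computed. The 7 were low dose 3-d, all doses at 7-d, low and middle dose at 14-d and middle dose at 28-d. An exact two-sided permutation test of the ratio gave p = 0.1 in each of them, the smallest value that 3 rats against 3 allow.

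At low dose the ratio stood above the controls at 3 of 4 time points. Its mean was 0.533 ± 0.0354 (SD, n = 3) at 3-d against 0.246 ± 0.10 in the controls, 0.585 ± 0.0681 at 7-d against 0.265 ± 0.0138, and 0.572 ± 0.0833 at 14-d against 0.247 ± 0.0256. These are 2.17-fold, 2.21-fold and 2.31-fold of the control means. At high dose the ratio was unequal between rats. It was 0.713, 0.704 and 0.30 at 3-d and 0.368, 0.585 and 1.26 at 7-d, and the rat with 1.26, replicate 27, was the only one of 48 with more reads of miR-146b-5p than of miR-146a-5p. At 14-d the high dose mean was 0.235, against 0.247 in the controls.

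**Figure D3:**
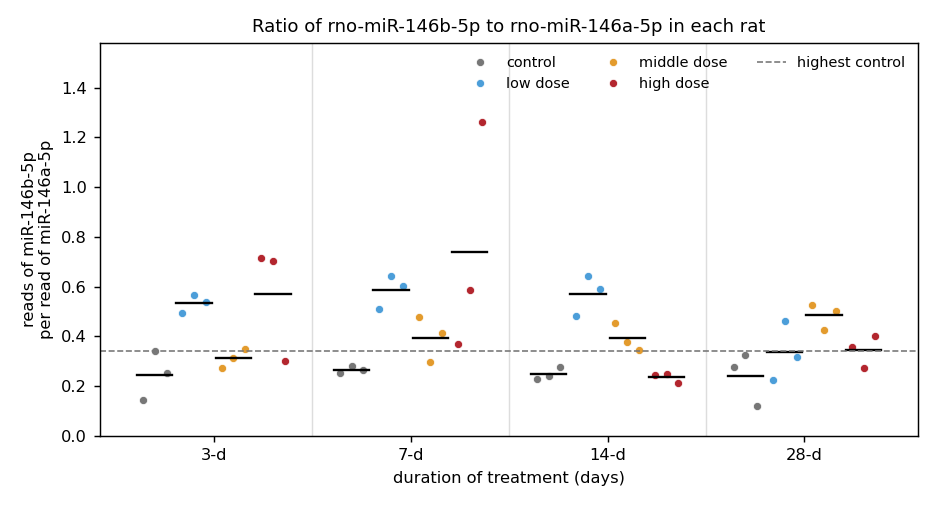
Reads of miR-146b-5p per read of miR-146a-5p in each rat (linear axis from 0), by duration and dose, where black lines are means of 3 and the dashed line is the highest control (0.342). All 9 low dose rats after 3, 7 and 14 days lie above the dashed line, and the 3 high dose rats at 14-d lie below it.

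Differences between doses and between time points were tested directly, as contrasts of a single edgeR fit of all 48 libraries. Of 12 differences between doses, 1 had an adjusted p below 0.05 for miR-146b-5p, 1 for miR-155-5p and 0 for miR-146a-5p (unadjusted 5, 3 and 1). miR-155-5p was higher at high than at low dose at 3-d by 1.04 on the log2 scale (SE 0.36, adjusted p = 0.0470), in a comparison with 13.6% of miRNAs below 0.05 in either direction. For high minus middle dose at 3-d it had 1.37 (SE 0.36, adjusted p = 0.0617). miR-146b-5p was lower at high than at low dose at 14-d, with a high minus low difference of -0.99 (SE 0.34, adjusted p = 0.0392), where 19.3% of miRNAs were below 0.05. The steps between neighbouring doses at 14-d did not pass for miR-146b-5p. Middle minus low dose was -0.62 (adjusted p = 0.182) and high minus middle dose was -0.37 (adjusted p = 0.712). Its middle minus low dose difference at 28-d was 1.02 (SE 0.34, adjusted p = 0.0636), and high minus middle dose at 3-d was 1.2 (SE 0.34, adjusted p = 0.0895). At 7-d neither member passed the test between low and high dose, and high minus low dose was 0.44 (95% interval -0.25 to 1.12) for miR-146b-5p and 0.61 (-0.11 to 1.34) for miR-155-5p.

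Each member had 6 differences between time points. An adjusted p below 0.05 was reached by 0 for miR-146a-5p, 0 for miR-146b-5p and 1 for miR-155-5p (unadjusted 2, 3 and 3). For miR-155-5p this was at high dose. Its effect at 28-d minus its effect at 3-d was -2.45 on the log2 scale (SE 0.53, adjusted p = 0.00311), where 8.64% of miRNAs were below 0.05. The controls enter this difference and were 0.88 higher at 28-d than at 3-d. Against 7-d, which does not use the shallow control library, the difference was -1.41 (SE 0.51, adjusted p = 0.139). The high dose differences between 28-d and 3-d were -1.31 for miR-146b-5p (SE 0.48, adjusted p = 0.0630) and -0.83 for miR-146a-5p (SE 0.31, adjusted p = 0.0646). Of the 2 differences that the dose contrasts called, the one of miR-155-5p at 3-d held in 23 of 52 alternatives and was lost without either of high dose 3-d replicates 22 (adjusted p = 0.201) and 23 (0.238), and the one of miR-146b-5p at 14-d held in 42 of 52. The time difference of miR-155-5p held in 52 of 52.

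The other strand of each hairpin was close to the floor. Over all libraries there were 901 reads of miR-146a-3p against 512283 of miR-146a-5p (0.176%), 123 of miR-146b-3p against 208522 of miR-146b-5p (0.0590%) and 79 of miR-155-3p against 13525 of miR-155-5p (0.581%). None of the 3p strands reached 5 RPM in any library, so they were not tested. For miR-155-3p the group shares ran from 0 of 589 reads at low dose 7-d, which allows up to 0.624% (exact binomial 95% limit), to 1.75% at high dose 28-d (0.961% to 2.92%). The latter rests on replicate 21, which held 11 of the 14 reads of miR-155-3p in that group. Without it the share was 0.721%, or 3 of 416 reads, an alternative chosen after seeing the data. At high dose 3-d, where miR-155-5p was highest, miR-155-3p had 4 reads beside 2259 of miR-155-5p.

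Likeness to other miRNAs was measured as Pearson's r of log2 (normalized RPM + 0.5) over the 16 group means, which share libraries and controls, so r is a description. miR-155-5p was most like miR-21-3p (r = 0.92), the other strand of the miR-21 hairpin, and miR-21 is known to rise in injured liver. miR-21-3p had a mean of 567 normalized RPM at high dose 3-d and 337 at high dose 7-d, against 83.1 and 91.7 in the controls of those times, and its control mean was 209 at 14-d and 227 at 28-d. Next came miR-330-5p (0.86), miR-3559-3p (0.83), miR-219a-5p (0.82) and miR-872-5p (0.81). miR-146b-5p was most like miR-3559-3p (0.88), miR-466b-5p (0.87), miR-132-3p (0.87), miR-449a-5p (0.85) and miR-674-5p (0.85). For miR-146a-5p the closest was miR-293-5p (0.70), followed by miR-29c-5p (0.61), miR-330-5p (0.60), miR-374-5p (0.58) and miR-363-3p (0.56).

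Among the members themselves, r was 0.77 for miR-146b-5p and miR-155-5p, 0.40 for miR-146a-5p and miR-155-5p, and 0.32 for miR-146a-5p and miR-146b-5p. Counted over the 48 libraries as deviations from the group means, these were 0.68, 0.42 and 0.36. Among the 300 other tested miRNAs, miR-155-5p ranked 17 by its likeness to miR-146b-5p, while miR-146b-5p ranked 50 by its likeness to miR-146a-5p, with which it shares its seed.

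Of 18 other miRNAs linked to inflammation, all tested, 10 were called higher and 8 lower in at least 1 condition. Summed over the 12 conditions there were 28 calls higher and 12 lower among 216 comparisons. The share called higher, 13%, was close to the 12.1% of all miRNAs, and the share called lower, 5.56%, was close to the 5.98% of all comparisons that were called lower. At 7-d, 3, 4 and 4 of the 18 were called higher at low, middle and high dose. Of all 301 miRNAs, 18.3%, 12% and 17.9% were called higher there. At middle dose 28-d there were 5 of the 18, against 20.9% of all miRNAs. The median log2 fold change there was 0.24 for the list and 0.02 for all miRNAs. At high dose 3-d there were 2, against 6.98% of all miRNAs, with medians of 0.10 and 0.28. The member of the list called most often was miR-132-3p, which is induced by lipopolysaccharide in macrophages, with 6 conditions. It had a log2 fold change of 1.74 at high dose 3-d (edgeR adjusted p = 0.40), 1.97 at high dose 7-d (adjusted p = 0.00405) and 1.42 at middle dose 28-d (adjusted p = 0.00101), 3 conditions in which miR-146b-5p was also called. Its 3-d controls had 0 to 5.99 normalized RPM, near the floor. In control 3-d replicate 1, 3 reads already make 10.2 RPM, and the 3-d value is not given without that library. miR-212-3p, from the same cluster as miR-132-3p, was called higher at middle (0.61) and high dose 7-d (1.52). The edgeR adjusted p was below 0.05 in 1 of these 2 calls.

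miR-21-5p, the most abundant of the list, was called higher at low dose 3-d (0.78), high dose 3-d (1.02) and high dose 7-d (0.59) and lower at high dose 14-d (-0.68). None of these calls had an edgeR adjusted p below 0.05. The 3-d values rest in part on the shallow control 3-d replicate 1, and the value at high dose 7-d sits at the fold limit. miR-147, miR-221-3p and miR-301a-3p were called in 0 conditions. Calls lower included miR-125a-5p at low dose after 3, 7 and 14 days, with log2 fold changes between -1.50 and -0.83. The edgeR adjusted p was below 0.05 in 2 of these 3 calls.

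**Figure D4:**
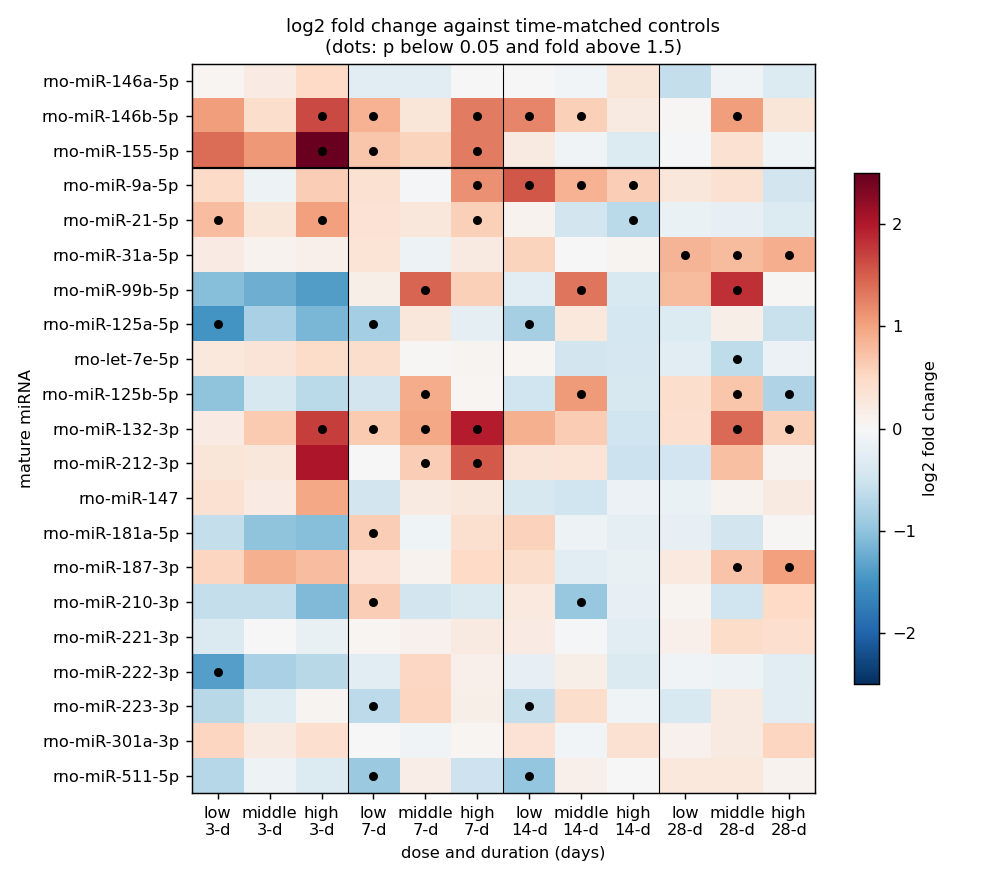
Log2 fold change (colour scale) of the 3 members, above the line, and of 18 other miRNAs linked to inflammation, below it, in 12 dose and time conditions, with dots where called. The dots of miR-146b-5p and miR-132-3p coincide at high dose 3-d, low dose 7-d, high dose 7-d and middle dose 28-d, and miR-223-3p and miR-511-5p are marked lower at low dose 7-d and 14-d.

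The 6 leukocyte miRNAs did not move in a single direction with the members. They gave 1 call higher and 8 calls lower in 72 comparisons, or 1.39% and 11.1%, where 12.1% and 5.98% of all comparisons were called. miR-223-3p and miR-511-5p, with 2 calls lower each, are also in the list linked to inflammation, so the lists are not independent. The call higher was miR-142-3p, a miRNA of all blood cell lineages, at high dose 3-d (log2 fold change 1.26, SE 0.51, edgeR adjusted p = 0.40). There the summed level of the list was 4011 to 4251 normalized RPM, above the 2562 to 3660 of the controls, in the condition in which miR-146b-5p and miR-155-5p were highest. Most of that sum was miR-142-5p, with a mean of 3287 of 4114 at high dose and 1812 of 2988 in the controls (log2 fold change 0.86, adjusted p = 0.432). miR-150-5p of lymphocytes had a mean of 407 against 894 (log2 fold change -1.13, adjusted p = 0.40) and miR-342-3p 70.7 against 78.9 (-0.12, adjusted p = 0.907). Single 3-d controls ran from 397 to 1564 for miR-150-5p and from 43.7 to 127 for miR-342-3p. They include the shallow control 3-d replicate 1, and the leukocyte fold changes are not given without it. At high dose 3-d the median log2 fold change of the 6 was -0.03, and that of all miRNAs 0.28. At low dose 7-d the sum was 1884 to 2881, below the controls (3025 to 3552), and at low dose 14-d it was 2595 to 2797 against 3299 to 4387. In these conditions miR-146b-5p was called higher, whereas miR-150-5p (-1.38 and -0.74), miR-223-3p of myeloid cells (-0.66 and -0.60) and miR-511-5p of macrophages (-0.94 and -0.96) were called lower, each with an adjusted p below 0.05. At middle dose 28-d the sum (4683 to 5418) overlapped with the controls (4239 to 5162), and at high dose 7-d it did as well (3038 to 3763 against 3025 to 3552).

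The control sums of the leukocyte list were 2562 to 3660 at 3-d and 4239 to 5162 at 28-d, and over the same span the miR-155-5p controls went from 0 to 18.9 up to 20.5 to 26.8. This was not particular to leukocytes. The control sums of hepatocyte miRNAs went from 124790 to 292346 up to 327711 to 351119. Those of endothelial miRNAs went from 6827 to 20809 up to 28159 to 32448. The control sums of the other marker lists overlapped between 3-d and 28-d. All 3-d ranges include the shallow control 3-d replicate 1. None of the 6 leukocyte miRNAs was at 0 in group mean. The part that cell composition has in any of these differences was not tested. Of the other marker lists, the 2 endothelial miRNAs had 0 calls by edgeR in 24 comparisons. The 5 of stellate and smooth muscle cells had 6 calls higher and 7 lower in 60 comparisons (10% and 11.7%). The 5 of hepatocytes had 2 higher and 6 lower in 60 (3.33% and 10%), and the 5 of biliary epithelium 5 higher and 8 lower in 60 (8.33% and 13.3%). The 4 of red blood cells had 1 higher and 20 lower in 48 (2.08% and 41.7%). All these shares stand beside the 12.1% and 5.98% of all miRNAs.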

How the data were processed

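The authors isolated total RNA from liver pieces, made TruSeq small RNA libraries and sequenced them on a HiSeq2000. After adaptor removal the authors retained reads with 18 to 25 bases, counted them by miRDeep2 on miRBase release 21, and deposited raw counts per mature miRNA and precursor of 48 libraries, not normalized. The number of mismatches allowed is not given in the sources used here. A mature miRNA with several precursors (71) was represented by the one with the most reads.

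Each condition was fitted with its 3 treated and 3 control libraries in edgeR 4.0.16 (R 4.3.3), with upper quartile normalization. Contrasts between doses and times and the controls over time came from a single fit of 48 libraries, adjusted over 301 miRNAs within each contrast. The standard error is the log2 fold change divided by the square root of F. The labels number the rats 1 to 48, which served as replicate numbers, and give no batch. Nothing says more of the rats than their group, so p-values measure the spread between these samples. Members and lists were chosen with earlier results of these data known. The other miRNAs named are the 5 most like each member and, from the lists, those called most and least often and the leukocyte markers. miR-212-3p, miR-21-5p and miR-125a-5p were added after their values were seen. Alternatives were TMM, DESeq2 (1.42.0) size factors and Wald test, library size alone, other filters, edgeR's exact test, pooled controls, a single fit, calls by adjusted p, and leaving out each library. The scripts were tested on simulated data. The limit on false calls there was not applied to upper quartile normalization, the main setting. Recovery of log2 fold changes was judged after a constant shift was taken off. Intervals cover counting error only for shares of reads. Python 3.11.15 and pandas 2.3.3 were used for tables.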

Additional observations from a re-analysis of the deposited data

Results flagged for a closer look

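In 3 cases a test of the difference between treatment effects, in a single edgeR fit of 48 libraries, passed an adjusted p of 0.05. The effect of TAA on miR-155-5p at 3-d was larger at high than at low dose by 1.04 on the log2 scale (adjusted p = 0.0470, both groups set against the same controls). The high and low dose rats overlapped, since high dose 3-d replicate 24 had 27.2 normalized RPM and the low dose rats 27.4 to 37.3. The effect on miR-146b-5p at 14-d was smaller at high than at low dose, with a high minus low difference of -0.99 (adjusted p = 0.0392), with 282 to 303 normalized RPM in the high dose rats and 509 to 642 in the low dose rats. The effect of the high dose on miR-155-5p was smaller at 28-d than at 3-d, with a 28-d minus 3-d difference of -2.45 (adjusted p = 0.00311). The control library with 0 reads of miR-155-5p enters the 3-d effect. The control level itself was 0.88 higher at 28-d than at 3-d on the log2 scale, or 0.68 without that library. The high dose mean was 66.6 normalized RPM at 3-d and 22.4 at 28-d.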

How the results depend on the processing

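Of 528 log2 fold changes recomputed under an alternative, 46 turned their sign, and 0 of these were of a called value. For miR-146b-5p 163 of 180 stayed on the same side of the DEM thresholds, for miR-155-5p 149 of 168 and for miR-146a-5p 176 of 180. With each library left out, miR-146b-5p was called in 5 to 7 conditions and miR-155-5p in 2 to 4. miR-146a-5p was called in 1 condition with at least 5 RPM required in every library or with a single fit (low dose 28-d in both), and in 0 to 2 with a library left out. miR-155-5p had no value under the filter on every library. The number of dose differences with an adjusted p below 0.05 went from 1 to 0 for miR-146b-5p under TMM, DESeq2 size factors and no filter, and to 2 with library size alone. For miR-155-5p it went to 0 with DESeq2 size factors and no filter, and for miR-146a-5p to 1 with library size alone. With a library left out it was 0 to 4 for miR-146b-5p and 0 to 2 for miR-155-5p. Time differences were 0 to 1 for miR-146a-5p, 0 to 2 for miR-146b-5p and 1 to 2 for miR-155-5p. The adjusted p over the control groups of miR-155-5p was 0.0347 to 0.210 with a control left out, lowest without control 3-d replicate 2. The causes were not tested. No paired analysis was possible because no replicate number occurs in more than 1 group. Depth limits miR-155-5p most, with 0 to 10.2 RPM possible in control 3-d replicate 1.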
